A study of Mus musculus with 2 samples.

Results

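The imprinted Dlk1-Dio3 region of mouse chromosome 12 holds one of the largest groups of microRNA (miRNA) genes in the mouse genome, and its levels were described here, gene by gene, in the heart. Members were all miRNA genes of the GENCODE annotation M21 on the plus strand of chromosome 12 with a start between positions 109450000 and 110000000 of the mm10 assembly. The rule used position alone and no read count, and it gave 59 of the 2202 miRNA genes of the deposited tables. MicroRNA-seq, which reads short RNAs, was done on total RNA of heart tissue. The mice were 36-day-old B6CASTF1/J males from The Jackson Laboratory, an F1 cross between the inbred strains B6 and CAST. The 2 libraries form 1 group and are called library 1 and library 2. No treatment, transgene or second genotype is named, so there was no comparison between conditions. The labels number the libraries as biological replicates from differently numbered males that carry the same donor record. The p-values between libraries therefore set the difference between these 2 libraries against counting error alone. They hold no estimate of the spread between animals, and a difference may be technical.

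In an imprinted region, genes are expressed from the chromosome inherited from 1 parent. From the maternal copy of this region come the long non-coding RNAs Meg3, Rian and Mirg, together with the miRNAs and small nucleolar RNAs that lie in and between them; from the paternal copy come the protein-coding genes Dlk1, Rtl1 and Dio3. Several of the miRNAs lie opposite Rtl1, a retrotransposon-derived gene needed for the fetal vessels of the placenta and for muscle, and pair perfectly with its transcript. A miRNA is cut from a hairpin precursor and guides the silencing of mRNAs that match its seed, bases 2 to 8 of the mature strand. The cluster is best known for high expression in embryo, placenta and brain, and in heart and skeletal muscle some of its miRNAs have been tied to growth and regeneration. Transcripts of Dlk1, Meg3, Rtl1, Rian, Mirg and Dio3 were not analysed here, and the counts do not separate the maternal from the paternal allele.

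The order along the chromosome was read from the annotation. Meg3 ran from position 109541001 to 109571726, Rian from 109603940 to 109661716 and Mirg from 109729764 to 109749460, all on the plus strand. Rtl1, on the minus strand, ran from 109589193 to 109600330. The 59 hairpins spanned 203.42 kb, from Mir1906-1 (start 109544541) to Mir3072 (end 109747960). Splitting them wherever consecutive starts lay more than 10 kb apart gave 5 segments. The first and the fourth were a lone gene each, Mir1906-1 in an exon of Meg3 and Mir882 between Rian and Mirg. The second held 14 genes over 31.7 kb, from Mir770 to Mir136, and is called the Mir127 segment after its most abundant gene. Of these genes, 6 lay opposite an exon of Rtl1 (Mir431, Mir433, Mir127, Mir434, Mir432 and Mir136). The third segment held 4 genes in introns of Rian, from Mir341 to Mir370, over 6.84 kb. The fifth, called the Mir379 segment, held 39 genes over 38.9 kb from Mir379 to Mir3072, and 14 of them lay in Mirg, 9 in one of its exons. In all, 39 members lay in no annotated host on their own strand.

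The mature sequences that the results turn on are those of the most abundant members of the segments. A mature sequence was found for 57 of the 59 members in the RefSeq table (build GRCm38.p6), and a hairpin for 54. The table held 105 distinct mature miRNAs for the members, with 97 distinct seeds. Among these sequences, 8 seeds were shared within the cluster, each by 2 mature miRNAs. Only the 5p strand was held for Mir376c, Mir487b and Mir539, and only the 3p strand for Mir485. Strands that were not held could not be compared, so further shared seeds may exist. In the Mir127 segment the 3 genes with the highest mean level were Mir127, Mir337 and Mir431, whose mature strands are given 5′ to 3′ with the seed in capitals.
miR-127-5p: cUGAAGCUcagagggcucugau
miR-127-3p: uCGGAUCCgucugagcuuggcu
miR-337-5p: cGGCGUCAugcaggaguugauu
miR-337-3p: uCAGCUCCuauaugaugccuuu
miR-431-5p: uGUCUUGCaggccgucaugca
miR-431-3p: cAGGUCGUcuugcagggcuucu

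In the Mir379 segment the 3 highest genes were Mir411, Mir541 and Mir379. They are shown with Mir1193, a scarcer gene of the same segment that shares a seed with Mir379, and with the only members of the Rian segment that had reads, Mir370 and Mir341. Seeds are again in capitals.
miR-379-5p: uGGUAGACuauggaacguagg
miR-411-5p: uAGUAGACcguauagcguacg
miR-1193-5p: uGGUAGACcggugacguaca
miR-379-3p: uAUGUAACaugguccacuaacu
miR-411-3p: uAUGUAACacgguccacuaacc
miR-1193-3p: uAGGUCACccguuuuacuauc
miR-370-5p: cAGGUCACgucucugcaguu
miR-370-3p: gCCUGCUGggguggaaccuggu
miR-341-5p: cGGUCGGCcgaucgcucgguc
miR-341-3p: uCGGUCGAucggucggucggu
miR-541-5p: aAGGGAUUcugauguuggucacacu
miR-541-3p: uGGCGAACacagaauccauacu
The 3p strands of Mir379 and Mir411 share the seed AUGUAAC, the 5p strands of Mir379 and Mir1193 share GGUAGAC, and miR-1193-3p shares AGGUCAC with miR-370-5p. The 5p strands of Mir379 and Mir411 do not share a seed. Counting positions from 1 at the 5′ end of miR-379-5p, the sequences differ by G2A inside the seed and by U9C, A10G, G12A, G13U, A15G and G20C outside it, so that 14 of 21 bases are identical. The tables count reads per hairpin gene and do not say which of the arms a read came from.

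Mir127, the most abundant member, lies in the mm10 assembly at chr12:109592846-109592915 on the plus strand, opposite an exon of Rtl1. Its hairpin is printed because its reads carried a larger share of the cluster than those of any other gene, and the capitals mark both mature arms.
Mir127: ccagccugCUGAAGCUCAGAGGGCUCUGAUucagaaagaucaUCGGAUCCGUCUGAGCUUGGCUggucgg

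The promoter of Meg3, the first of the maternally expressed transcripts, is given because the miRNA genes downstream of it are described together. The window runs from 250 bases before to 50 after the RefSeq start, at chr12:109540746-109541045 of the plus strand, and capitals mark 2 stretches matched by the motifs searched.
Meg3 promoter: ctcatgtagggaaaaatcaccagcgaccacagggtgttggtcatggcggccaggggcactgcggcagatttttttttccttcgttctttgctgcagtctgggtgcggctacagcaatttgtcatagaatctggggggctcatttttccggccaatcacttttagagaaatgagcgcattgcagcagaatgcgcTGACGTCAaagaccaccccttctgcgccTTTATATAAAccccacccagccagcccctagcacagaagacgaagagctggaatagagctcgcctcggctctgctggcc
TGACGTCA, the palindromic cyclic AMP response element, was found at positions 194 to 201 of the window and in 588 of 32851 RefSeq promoters of that length (1.79%). TATAAA, the core of the TATA box, was found at positions 226 to 231 of the plus strand and, overlapping it, at 222 to 227 of the minus strand. It was present on either strand in 4473 of the 32851 promoters (13.6%). Both are matches of letters and no binding was measured.

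The libraries held 5479149 and 4893073 reads, of which 1999362 and 1862526 (37.3% ± 1.11, SD, n = 2) had been assigned to the sense strand of a miRNA gene. All levels are counts per 1000000 of these assigned reads (CPM). They count the short reads of a hairpin and were not divided by hairpin length. A count of 3, the limit set here for 0 reads, stands for 1.5 CPM in library 1 and 1.61 CPM in library 2. The exact Clopper-Pearson 95% interval for 0 reads reached somewhat higher, to 0.000185% and 0.000198% of assigned reads. Another 41.5% and 42.9% of reads matched more than a single place in the genome and count for no gene. Intervals and limits cover counting error only, since the labels name no molecular identifiers. The cardiac miRNAs Mir208a, Mir208b and Mir499, encoded within myosin heavy chain genes, were present in both libraries with summed levels of 8490 and 6637 CPM.

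The cluster as a whole was a small part of the heart's assigned miRNA reads. Its 59 genes held 10679 reads in library 1 and 6323 in library 2, 0.534% (exact Clopper-Pearson 95% interval 0.524 to 0.544) and 0.339% (0.331 to 0.348) of assigned reads. The intervals did not overlap, and the SD between libraries was 0.138 percentage points. A count was found for 46 of the 59 members (78.0%), against 29.6% of all miRNA genes. The median of the mean level was 14.2 CPM among members with a count and 3.40 CPM among all genes with one. At 10 CPM or more in both libraries, 22 members (37.3%) were detected, while over all 2202 genes the share was 11%. Of all 2202 genes, 1023 share a run of 22 nt with another hairpin, against 5 of the 59 members. Reads that match several places count for no gene, so the genes behind these shares were not equally open to counting. The part of this in the gap was not tested. In library 1 alone 28 members reached 10 CPM, and in library 2 the number was 22.

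A few genes held most of the reads. From the lowest member with a count to the highest, mean levels ranged 1976-fold, though the lowest, Mir3072, had only 2 and 1 reads. The 5 most abundant genes (Mir127, Mir411, Mir541, Mir379 and Mir382) held 71.6% of the cluster's reads in library 1 and 72.8% in library 2. Across the 46 members with a count, the order of levels was close in both libraries (Spearman's rho 0.947, across genes that share libraries and depth). Mean levels of 100 CPM or more were reached by 8 genes, and the highest of them, Mir127, ranked 54 among all miRNA genes. The rank rests on assigned reads only, so genes whose reads match several places can stand lower in it than their abundance.

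**Figure D1:**
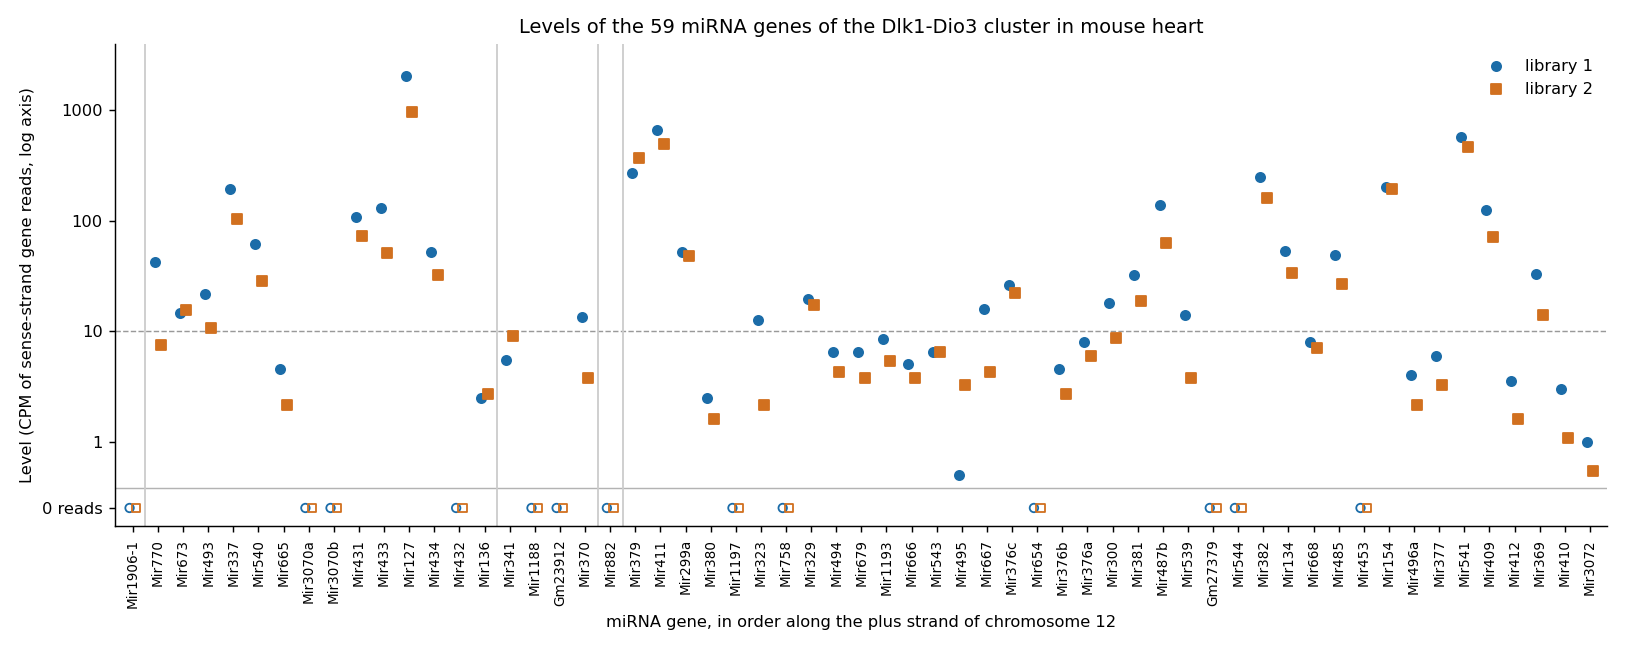
Level in CPM (log axis) of each of the 59 genes in chromosomal order, with circles for library 1, squares for library 2, open symbols for 0 reads, vertical lines between segments and a dashed line at 10 CPM. High genes stand beside genes with no read, and Mir127 is highest in both libraries.

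In the Mir127 segment, levels rose and fell from one hairpin to the next. Mir127 had 4122 reads in library 1 and 1817 in library 2, or 2062 and 976 CPM, with a mean of 1519 CPM ± 768 (SD, n = 2). It made up 38.6% and 28.7% of the cluster's reads. Its nearest neighbours opposite Rtl1 were far lower. Mir433, which starts 1.131 kb before it, had 130 and 51.0 CPM, and Mir434, which starts 1.66 kb after it, had 52.5 and 32.2 CPM. Mir431, known from work on regenerating skeletal muscle, had 109 and 72.5 CPM. Mir136 had 5 reads in each library and Mir432 had none, although both lie opposite Rtl1 exon sequence as well. The levels opposite Rtl1 thus ran from 0 reads to the highest of the cluster.

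Before the Rtl1 stretch, the highest gene was Mir337 (193 and 105 CPM, mean 149 ± 62.5), followed by Mir540 (61.0 and 28.5 CPM). Mir493 had 21.5 and 10.7 CPM, and Mir673 14.5 and 15.6 CPM. Mir770, whose hairpin at positions 109563692 to 109563785 overlaps an exon of Meg3, had 42.5 and 7.52 CPM, from 85 and 14 reads. Its SD of 24.7 CPM was about as large as its mean of 25.0 CPM. Mir665 stayed under 10 CPM with 9 and 4 reads. Mir3070a and Mir3070b had no read. Their hairpins were printed because they share a run of 22 nt or more, so that reads from that run map to both, and capitals mark the mature arms.
Mir3070a: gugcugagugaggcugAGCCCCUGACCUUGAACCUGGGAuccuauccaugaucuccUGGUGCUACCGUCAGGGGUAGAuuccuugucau
Mir3070b: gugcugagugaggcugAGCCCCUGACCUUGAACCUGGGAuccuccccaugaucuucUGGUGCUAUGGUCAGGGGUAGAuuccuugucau
Of 89 bases, 84 are identical. Counted from 1 at the 5′ end of Mir3070a, the differences are A44C, U45C, C55U, C65U and C66G.

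The Rian segment was nearly silent. Mir341 had 11 and 17 reads and Mir370 27 and 7, while Mir1188 and Gm23912 had none. Together the 4 genes held 0.356% and 0.38% of the cluster's reads. Mir370 was the higher of the pair in library 1, with 13.5 against 5.50 CPM, and the lower in library 2, with 3.76 against 9.13 CPM, so the order of these neighbours was not settled by the data.

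The Mir379 segment opened with Mir379 and Mir411, the third and the first of its genes by mean level. Mir411 (positions 109710175 to 109710256) had 671 and 500 CPM, with a mean of 586 ± 121, and Mir379 (109709060 to 109709125), whose start lies 1.115 kb before it, had 273 and 368 CPM, with a mean of 321 ± 67.3. The levels of these genes did not overlap. Mir299a, the next hairpin, had 52.5 and 47.8 CPM. After it came a long stretch of low genes. Of the hairpins from Mir380 to Mir381, Mir376c was higher than most at 26 and 22 CPM, and Mir381 had 32.0 and 18.8 CPM. Mir329, one of the miRNAs studied in vessel growth after ischaemia, had 19.5 and 17.2 CPM. Mir300 had 18 and 8.59 CPM and Mir667 16.0 and 4.30 CPM. Mir376c and Mir376b share a run of 22 nt, so reads from that run map to both.

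From Mir487b to the end of Mirg, high and low genes alternated. Mir487b had 139 and 62.3 CPM, a mean of 101 ± 54.3. Mir382, in an exon of Mirg, had 250 and 161 CPM. Mir154, in an intron of Mirg and studied in cardiac fibrosis, had 202 and 195 CPM, a mean of 198 ± 4.34 and the smallest SD for its level among the 8 genes above 100 CPM. Mir541 (109742409 to 109742498, in an intron of Mirg) had 569 and 468 CPM, a mean of 518 ± 71.4. Its range over the libraries overlapped that of Mir411, but Mir411 was the higher within each library, at 671 and 500 CPM. Mir134, known in neurons for limiting the growth of dendritic spines, had 53.5 and 33.8 CPM, and Mir485, another miRNA of synapses, had 49.0 and 26.8 CPM. Mir409 had 126 and 71.9 CPM and Mir369 33.0 and 14.0 CPM. The other 7 genes in Mirg were under 10 CPM in both libraries, from 0 reads at Mir453 to 16 and 13 reads at Mir668. Mir410 and Mir495 have been studied in the proliferation of heart muscle cells. Mir410, in an exon of Mirg, had 6 and 2 reads, and Mir495, which lies before Mir487b and outside Mirg, had 1 and 6 reads.

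**Figure D2:**
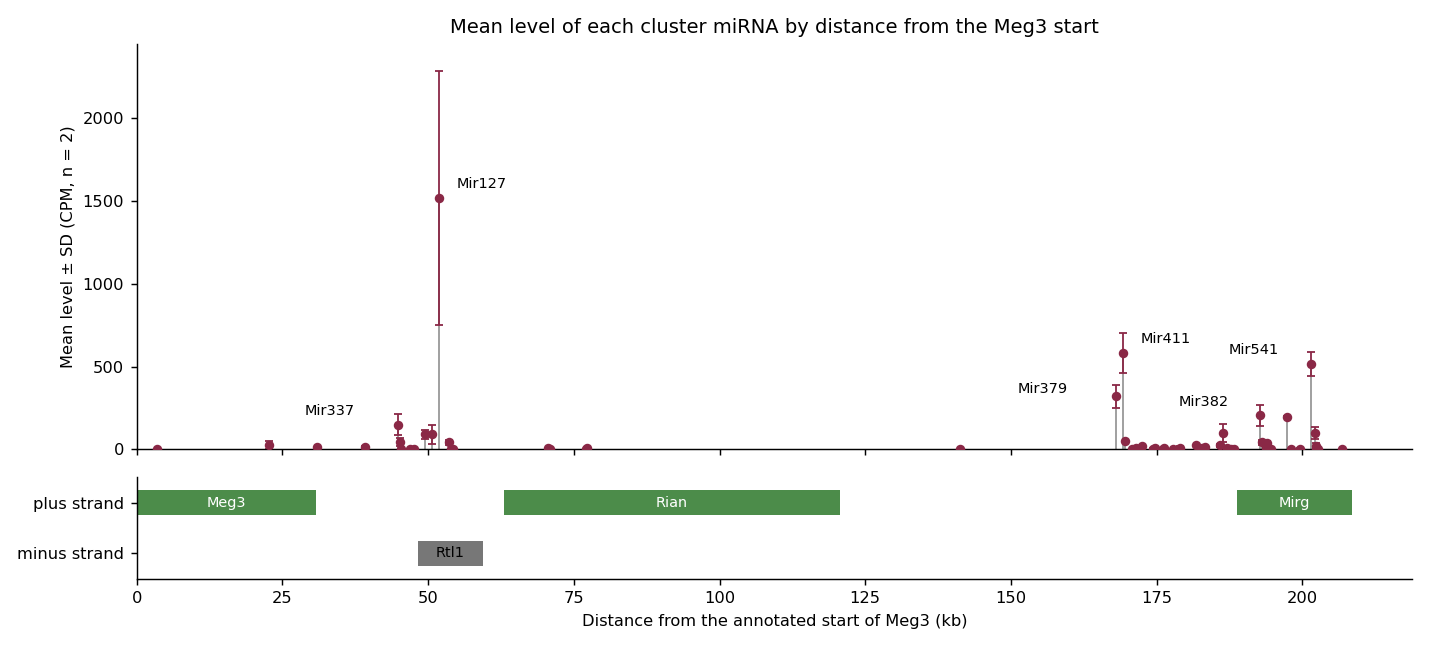
Mean level (CPM, linear axis) ± SD over 2 libraries of each gene against its distance in kb from the annotated start of Meg3, above bars that mark Meg3, Rian, Mirg and the opposite-strand gene Rtl1. Mir127 lies 51.8 kb from the start, and Mir411 and Mir541 stand at opposite ends of the Mir379 segment.

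The remaining 21 members with a count had means between 0.769 and 8.88 CPM. They are Mir665, Mir136, Mir341, Mir370, Mir380, Mir323, Mir494, Mir679, Mir1193, Mir666, Mir543, Mir495, Mir376b, Mir376a, Mir539, Mir668, Mir496a, Mir377, Mir412, Mir410 and Mir3072. Mir1193, which shares its 5p seed with Mir379, had 17 and 10 reads. The 13 members with 0 reads in both libraries were Mir1906-1, Mir3070a, Mir3070b, Mir432, Mir1188, Gm23912, Mir882, Mir1197, Mir758, Mir654, Gm27379, Mir544 and Mir453. Of these, 3 share a run of 22 nt with another hairpin (Mir1906-1 with Mir1906-2, and Mir3070a with Mir3070b), so for them a count of 0 can also stand for reads that mapped to several places. For the other 10, the limit of 3 counts stands for 1.5 and 1.61 CPM. Genes with 0 reads were not grouped at an end of the cluster. Of the 13, 3 lay in the Mir127 segment (Mir432 and the pair Mir3070a and Mir3070b), 2 in the Rian segment and 6 in the Mir379 segment, beside the 2 lone genes.

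Most cluster genes had a higher level in library 1 than in library 2. A gene entered the comparison if its reads in both libraries came to 10 or more, which 42 of the 46 members with a count met (not Mir380, Mir495, Mir410 and Mir3072). Of the 42, 38 (90.5%) had a higher CPM in library 1, against 218 of all 344 tested genes (63.4%). The 4 that were higher in library 2 were Mir673, Mir136, Mir341 and Mir379. Of these, Mir673 and Mir136 had equal counts, 29 and 5 reads in each library, and their CPM differed only by the assigned totals. With the trimmed mean of M-values (TMM) scaling of edgeR, which moved log2 ratios up by 0.19, 33 of the 42 were higher in library 1 and 9 in library 2, with Mir299a, Mir329, Mir543, Mir668 and Mir154 added to the 4. Summed over the cluster, the log2 ratio of library 2 over library 1 was -0.65 (exact 95% interval -0.70 to -0.61), a 1.57-fold higher level in library 1. With TMM it was -0.46. The median log2 ratio, with 0.5 added to each count, was -0.72 over the 42 members and -0.19 over all 344 genes. With TMM these medians were -0.53 and 0.00.

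Each of the 344 genes was tested with an exact two-sided binomial test of how its reads split between the libraries, given their assigned totals, and p-values were adjusted over all of them by Benjamini-Hochberg. Called genes had an adjusted p under 0.05 and differed at least 2-fold in CPM. Of the 42 members, 12 (28.6%) were called higher in library 1, where 12.2% of all tested genes were called. None was called higher in library 2, where 5.52% of all tested genes were. With the adjusted p alone, 22 members were higher in library 1 and 1 in library 2, and the shares over all genes were 36.3% and 17.7%. With TMM scaling, 7 of 42 members (16.7%) were called higher in library 1, against 7.85% of all genes, and 0 in library 2, against 8.43%.

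**Figure D3:**
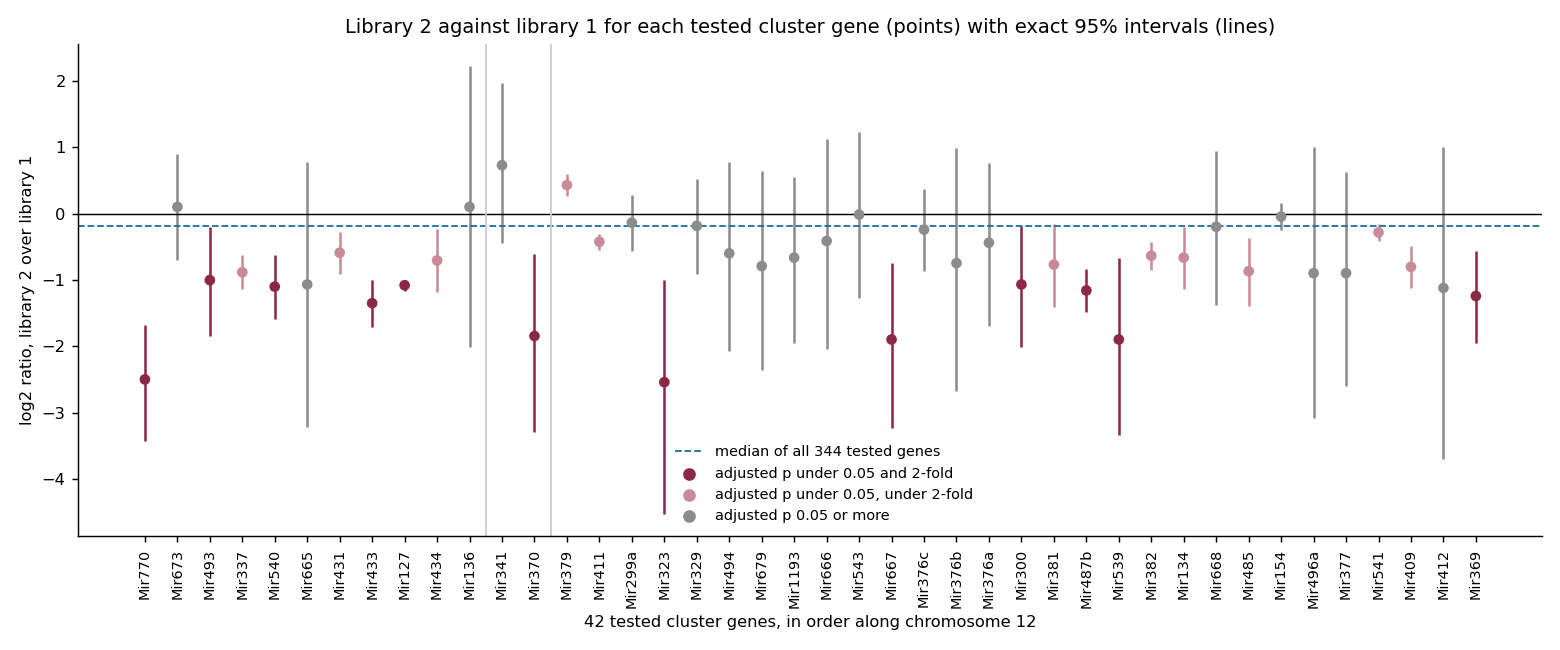
Log2 ratio of library 2 over library 1 (points) with exact 95% intervals (lines) for the 42 tested members in chromosomal order, coloured by the outcome of the test, with a dashed line at the median of all 344 tested genes (-0.19, 0.5 added to each count). Most points lie below 0, and Mir379 is the lone gene above 0 whose interval excludes 0.

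The called genes were spread over the cluster. In the Mir127 segment they were Mir770, Mir493, Mir540, Mir433 and Mir127, in the Rian segment Mir370, and in the Mir379 segment Mir323, Mir667, Mir300, Mir487b, Mir539 and Mir369. Mir127, at 2062 and 976 CPM, had a log2 ratio of -1.08 (-1.16 to -1.0; exact adjusted p = 1.59e-166), which became -0.89 with TMM, short of 2-fold. Mir770, at 85 and 14 reads, had a log2 ratio of -2.50 (-3.43 to -1.67; exact adjusted p = 4.93e-12), and -2.27 with TMM. Mir433 had a log2 ratio of -1.35 (exact adjusted p = 8.19e-16), and -1.16 with TMM. Mir323, with 25 and 4 reads, had a ratio of -2.54 with an interval from -4.52 to -1.01. Mir770, Mir433, Mir370, Mir323, Mir667, Mir539 and Mir369 were also called with TMM, whereas Mir493, Mir540, Mir127, Mir300 and Mir487b were then under 2-fold. Mir493 and Mir300 also no longer passed the test with TMM (exact adjusted p = 0.0782 and 0.0887), while Mir540, Mir127 and Mir487b did.

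Other abundant members differed less. Mir411 had a log2 ratio of -0.42 (-0.55 to -0.30) and Mir541 one of -0.28 (-0.41 to -0.15), both with an exact adjusted p under 0.05 and under 2-fold. With TMM the ratio of Mir541 was -0.09 and no longer passed the test. Mir154 did not pass (-0.04, -0.25 to 0.16; exact adjusted p = 0.785). Mir379 was the other way round, at 273 CPM in library 1 and 368 in library 2, with a log2 ratio of 0.43 (0.27 to 0.60; exact adjusted p = 6.43e-07), and 0.62 with TMM. It was thus the only tested member higher in library 2 at the adjusted p alone. Among the 16 members with 100 or more reads summed, 15 were higher in library 1, with a median log2 ratio of -0.68. Of all 216 genes at that depth, 137 were higher in library 1, with a median of -0.14.

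**Figure D4:**
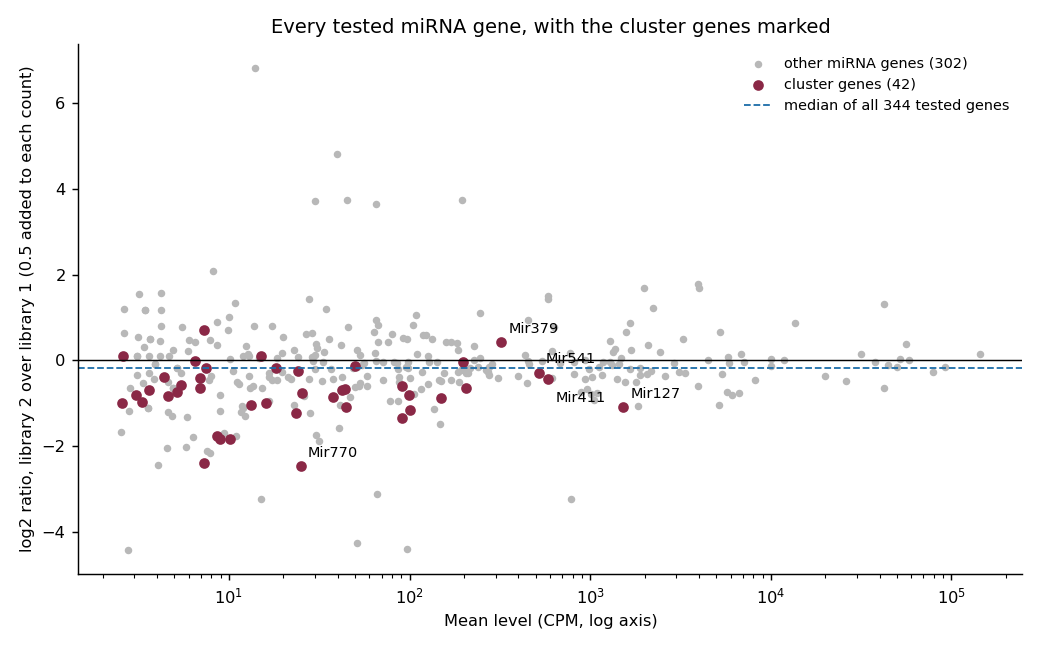
Log2 ratio of library 2 over library 1, with 0.5 added to each count, against mean level (CPM, log axis) for the 42 tested cluster genes (dark) and the other 302 tested miRNA genes (grey). Most cluster genes lie below the median of all genes, and many other genes have larger ratios in either direction.

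The segments did not differ alike. The Mir127 segment held 5384 and 2427 reads, 0.269% and 0.130% of assigned reads, with a log2 ratio of -1.05 (-1.12 to -0.98). The Mir379 segment held 5257 and 3872 reads, 0.263% and 0.208%, with a log2 ratio of -0.34 (-0.40 to -0.28). The exact intervals did not overlap, so the difference between the segment sums exceeds counting error. These sums rest mostly on a few abundant genes. The median log2 ratio of single members, with 0.5 added to each count, differed less. It was -0.98 over the 11 tested in the Mir127 segment and -0.66 over the 29 tested in the Mir379 segment. The share of cluster reads does not depend on the scaling of the libraries. In library 1 it was 50.4% (49.5 to 51.4) for the Mir127 segment and 49.2% (48.3 to 50.2) for the Mir379 segment. In library 2 it was 38.4% (37.2 to 39.6) and 61.2% (60.02 to 62.4). Without Mir127 its segment had a log2 ratio of -0.95, and without Mir379 its segment had one of -0.46. The Rian segment, with 38 and 24 reads, had an interval from -1.36 to 0.21, which includes 0.

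**Figure D5:**
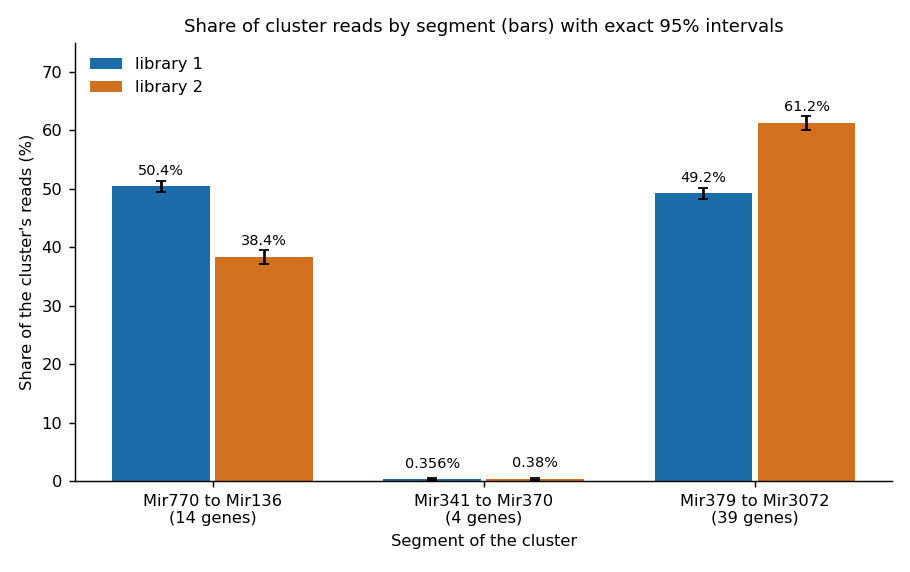
Share of the cluster's reads (%) in the 3 segments that had reads, as bars from 0 for library 1 and library 2, with exact 95% intervals. The share of the Mir127 segment, from Mir770 to Mir136, is 50.4% in library 1 and 38.4% in library 2.

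Ratios between neighbours within a library are also free of scaling, and 5 pairs chosen after their values were seen show how far they differed. Mir411 had 2.46 reads (exact 95% interval 2.22 to 2.72) for each read of Mir379 in library 1, against 1.36 in library 2 (1.23 to 1.5), although their starts lie 1.115 kb apart. Mir541 had 4.53 reads for each read of Mir409 in library 1 (3.95 to 5.21) and 6.50 in library 2 (5.41 to 7.86), 0.749 kb apart. In these 2 pairs the intervals of the libraries did not overlap. As the pairs were picked for their values, this describes them and no others. Mir127 had 15.9 reads for each read of Mir433 (14.0 to 18.04) and 19.1 in library 2 (15.6 to 23.8). For Mir127 over Mir434 the ratios were 39.3 (32.3 to 48.1) and 30.3 (23.4 to 39.8). In both of these pairs opposite Rtl1 the intervals overlapped. Across the segments, Mir127 over Mir411 was 3.07 (2.89 to 3.27) and 1.95 (1.80 to 2.11).

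Base composition was set beside these ratios. The median GC content of the hairpins was 55.8% in the Mir127 segment and 43.6% in the Mir379 segment, against 51.2% over all tested genes. Over all 42 tested members, GC content and the log2 ratio had a Spearman's rho of -0.296. Among the 16 with 100 or more reads it was -0.658, and among the 10 of these in the Mir379 segment -0.693. Over the 216 genes at that depth it was -0.133. These are descriptions across genes that share the same libraries. The part of base composition in the difference between libraries was not tested.

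Markers of other cells also differed between the libraries. Mir214 and the Mir199 genes, 4 markers of fibroblasts and other mesenchymal cells of which 3 had reads and Mir199a-1 was at 0, summed to 2484 and 1201 CPM. Nearly all of that sum was Mir214 (4941 and 2217 reads, log2 ratio -1.05), the lone gene of the list to pass the test, while Mir199a-2 had 17 and 6 reads and Mir199b 8 and 13. Mir21a, a fibroblast miRNA that was not on the list, was more abundant than Mir214 and went the other way. It had a mean of 3959 CPM and a log2 ratio of 1.79. Mir206 and Mir133b, the skeletal muscle list, both had reads and summed to 98.5 and 5.37 CPM. Nearly all of this was Mir206 (194 and 9 reads), as Mir133b had 3 and 1 reads, too few to be tested. Of 11 neuronal markers, 6 had reads and summed to 214 and 148 CPM, most of it Mir128-1 (174 and 125 CPM), while Mir124a-1, Mir124a-2, Mir124a-3, Mir9-2 and Mir9-3 were at 0, and 10 of the 11 share a run of 22 nt with another hairpin. The 3 cardiac markers summed to a log2 ratio of -0.36, but went opposite ways: Mir208a was called higher in library 1 (7004 and 3393 CPM, log2 ratio -1.05) and Mir499 higher in library 2 (1336 and 3141 CPM, log2 ratio 1.23). Mir126a of endothelium had a log2 ratio of 0.38, and the 2 smooth muscle markers summed to -0.03. The 3 erythroid and 4 leukocyte markers, all with reads, summed to log2 ratios of -0.32 and -0.11, but their members differed. Among the erythroid markers Mir451a was at -0.74, while Mir486 and Mir144 were at -0.04 and -0.03. Of the leukocyte markers, Mir150 was at 0.45, while Mir142, Mir155 and Mir223 were at -0.41, -0.30 and -0.17. The part of all these markers in the result was not tested. In whole tissue, fewer cells of a type and less RNA per cell cannot be told apart.

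miRNA genes of other imprinted regions were taken as a second list. Mir335, in an intron of Mest, was the highest at 1778 and 1539 CPM, below Mir127 in library 1 and above it in library 2. Mir298 had 75.02 and 108 CPM, Mir483 of Igf2 had 99.0 and 75.2 CPM, and Mir296 had 39.5 and 16.6 CPM. Mir675 of H19, a gene expressed mainly before birth, had 1 and 0 reads. Of the 4 that were tested, 1 (Mir296, log2 ratio -1.23) was called higher in library 1 and 0 in library 2. Over all tested genes the shares were 12.2% and 5.52%. The list's sum had a log2 ratio of -0.20, beside -0.65 for the Dlk1-Dio3 cluster. Most of the sum was Mir335 (3555 of 3983 reads in library 1 and 2866 of 3238 in library 2). Mir298 went the other way, with a log2 ratio of 0.52 (exact adjusted p = 0.00187).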

How the data were processed

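MicroRNA-seq of 2 mouse heart libraries was analysed from 1 deposited table each, which holds the authors' raw counts of reads per miRNA gene. Per the deposited text files beside them, the authors used mm10 and GENCODE M21. What aligner and counter made them is not given in the sources used here. Columns without a header hold counts of both strands, sense and antisense, as read from their values; the sense counts were used because 7 members overlap an opposite-strand miRNA gene and have 0 counts with both strands together. Rows that name no gene (63.5% and 61.9% of reads) were left out of totals. All 2202 identifiers matched M21. The age is 36 days by the age label, while a free-text label gives months.

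CPM, exact Clopper-Pearson intervals and the exact binomial tests were computed with Python 3.11.15, numpy 2.4.6, pandas 2.3.3 and scipy 1.17.1, figures with matplotlib 3.10.9, and scaling factors with R 4.3.3, edgeR 4.0.16 (TMM over genes with 10 or more counts) and DESeq2 1.42.0 as alternatives. Log2 ratios of single genes are plain ratios of CPM; medians and TMM values had 0.5 added to each count. The binomial test was tested on simulated counts. Named are all members with a mean of 10 CPM or more by value and the rest by name; sequences are given for the 3 highest of each segment and members that share their seeds. The members, lists and tests were chosen with earlier results of these data known. Alternatives were other strands, denominators, scalings, filters, fold thresholds, gaps and members left out.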

Additional observations from a re-analysis of the deposited data

How the results depend on the processing

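With 2 libraries of 1 group, a comparison between them cannot lose a library. The direction of the summed cluster ratio and of the 3 segment ratios was the same under each alternative run. The cluster share of 0.437% became 0.162% of all reads and 0.285% without Mir127, and ranged from 0.339% to 0.534% leaving out each library. The Mir127 segment's mean of 0.200% became 0.0739% of all reads and 0.0479% without Mir127 (0.130% to 0.269% by library). The Rian segment's 0.00159% became 0.00206% with both strands, 0.000592% of all reads, 0.000863% with a 5 kb gap and, merged with its neighbour, 0.201% with 20 kb. The Mir379 segment's 0.235% became 0.283% with both strands and 0.0875% of all reads. At 50 CPM, 11 members were detected in both libraries. Of 42 members, 7 were called higher in library 1 with TMM and 7 with DESeq2 size factors (7.85% of all genes with each), 22 with no fold criterion (36.3%), 20 at 1.5-fold (20.3%) and 5 at 3-fold (6.10%). Of the 16 with 100 or more counts, 4 were (7.87%). With no fold criterion, 1 of 42 was higher in library 2 (17.7%). Small ratios changed sign: Mir299a became 0.055 with TMM and 0.0522 with DESeq2, Mir329 0.0108 and 0.00809, and Mir154 0.146 and 0.143, 0.00341 with both strands and 0.0166 with all reads. For these 3 genes the interval of the ratio includes 0. Over 25 single members, 77 of 97 values kept their direction and their side of the adjusted p of 0.05, fold aside, 12 no longer passed it and 8 changed sign. The cause was not tested. Added after seeing the data were a pseudocount of 0.5 (11 of 42 called, 11.6% of all genes), the cluster without members that share 22 nt (-0.66) and the segments without Mir127 (-0.95) and Mir379 (-0.46). No paired analysis was possible because the labels give 1 group. Depth limits genes under 10 CPM, which rest on few reads.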

Other observations

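Beside the plus-strand genes, 7 miRNA genes were annotated on the minus strand of the window. Mir3544, opposite Mir337, had 1 read in each library, and the other 6 (Mir3071, Mir299b, Gm25750, Gm25252, Gm44322 and Gm24321) had none. The 52 members with no miRNA gene opposite them had 0 antisense reads in both libraries, a total that includes Mir127 and the rest of the hairpins opposite Rtl1 apart from Mir136.

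A second large imprinted miRNA cluster, the 119 genes annotated inside Sfmbt2 on chromosome 2, was measured in the same libraries. Only 13 of its genes had a read, and 116 share a run of 22 nt with another hairpin, against 5 of the 59 Dlk1-Dio3 members. Together they held 1372 and 1110 CPM, with a log2 ratio of -0.31, beside 5341 and 3395 CPM for the Dlk1-Dio3 cluster. Of the 7 that were tested, 0 were called in either direction, where 12.2% of all tested genes were called higher in library 1 and 5.52% in library 2. The highest was Mir467d, with 903 and 725 CPM.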
